A study of Mus musculus with 67 samples.

Results

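The comparison of p0-1 with p2 progenitors at day 5 rested on 6 of the 67 samples of the series, 3 of each cell type. Neural progenitors were made from HM1 mouse embryonic stem cells, and both cell types were sorted from cultures given 10 nM SAG, a small-molecule agonist of Smoothened that stands in for Sonic hedgehog (Shh), so that the medium, the retinoic acid and the day were shared and only the sorted identity differed. Cells were fixed, tagged with Tn5 transposase, stained with antibodies against transcription factors inside the cell, and sorted by flow cytometry, and accessible DNA was sequenced (CaTS-ATAC). SOX2+ cells with PAX6 and without NKX6.1 were collected as p0-1, which pools the p0 and p1 domains, and SOX2+ cells with both PAX6 and NKX6.1 were collected as p2. All 6 samples came from this 1 cell line and were pools of sorted cells. Replicates were independent differentiations in the study, which compared cell types sorted within the same dish. A p0-1 and a p2 sample of 1 number were taken here to share a dish, which the labels do not state.

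In the ventral neural tube, graded Shh signalling sets up stacked progenitor domains, and each domain gives rise to its own class of neuron. The p0 and p1 domains give V0 and V1 interneurons, and p2 gives V2 interneurons. The borders are kept by homeodomain and bHLH transcription factors that repress one another: NKX6.1 marks p2 and the domains ventral to it, whereas DBX1 marks p0 and is kept out of the ventral domains. As progenitors leave the cell cycle, proneural bHLH factors bind E-boxes and switch on Notch ligands and early neuronal genes.

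The values below are normalized read counts in regulatory elements, here called elements, which are the consensus peaks of the series. An element was named by the gene with the nearest transcription start site (TSS), which does not show that it regulates that gene. A count pools many cells, so a larger share of cells with an open element and a wider opening in each cell cannot be told apart. The gate used NKX6.1 protein, and accessibility near Nkx6-1 is therefore no independent sign of identity. Elements with a mean above 100 normalized counts over the 6 samples were tested, which left 32213, and calls needed both a mean change over the 3 pairs beyond 2-fold and an adjusted p below 0.01.

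Read totals in elements were 20330524, 20302713 and 23624554 for p0-1 replicates 1, 2 and 3, and 22674765, 13485605 and 20230952 for p2 replicates 1, 2 and 3. The p2 sample of replicate 3 stood apart from the other p2 samples. Its squared correlation over the tested elements was 0.941 with the p0-1 sample of its own replicate number, against 0.906 and 0.893 with p2 replicates 1 and 2, which had 0.969 between them. The pair of replicate 3 is therefore given separately below, and counts with and without it are given where they rest on it.

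p2 progenitors had more elements of raised than of lowered accessibility relative to p0-1 progenitors. Of the 32213 elements, 1393 (4.32%) were called higher in p2 and 78 (0.242%) lower. The 1393 elements lay closest to 1164 genes, Nkx6-1 with the most, and the 78 to 71 genes, among them Dbx1. Changes reached 4.85-fold among the lower elements, and 401 of the higher elements but 1 of the lower passed 4-fold. The median log2 fold change was 1.60 over the higher, -1.11 over the lower and -0.06 over all tested elements. The excess of higher elements depended on the fold threshold: with none, 2451 elements were higher and 1706 lower at the same adjusted p.

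**Figure D1:**
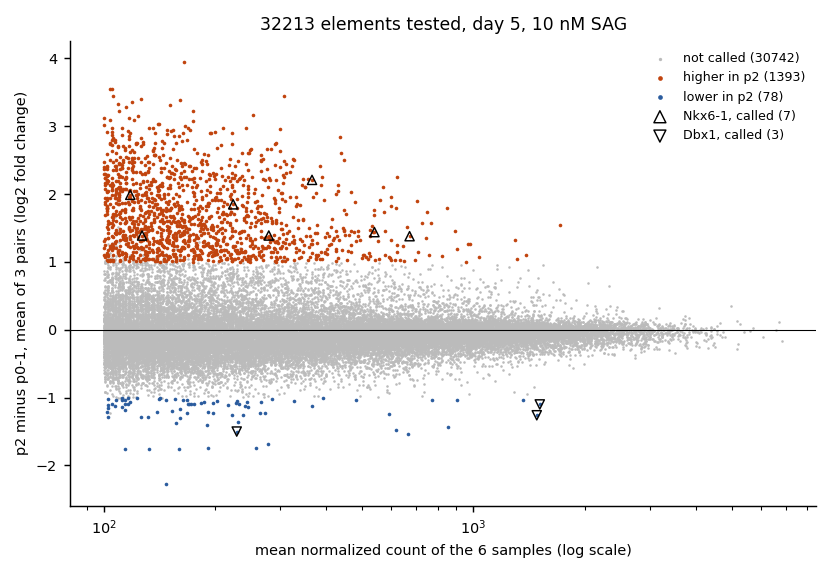
Mean normalized count of the 6 samples (log axis) against the log2 fold change of p2 over p0-1, the mean of 3 pairs, for the 32213 elements tested; each point is 1 element. The 1393 higher elements reach further from 0 than the 78 lower ones, and triangles mark the 7 called elements of Nkx6-1 and the 3 of Dbx1.

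The calls rested on comparing the samples within each pair. All 1471 called elements changed the same way in the 3 pairs, and 1371 of the higher and 77 of the lower had groups that did not overlap, where 29.3% of all tested elements had none; the call itself used these pairs, so nothing is read from either count. The median log2 change of the higher elements was 1.78 in pair 1, 2.04 in pair 2 and 1.04 in pair 3, and the change was smallest in pair 3 for 1350 of the 1393. Without the replicate block 4 elements were called at an adjusted p under 0.01, and 1343 at 0.05, of which 1322 were among the 1471. Leaving out pair 3 raised the count to 2376, and leaving out pair 1 or pair 2 lowered it to 4 or 603.

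Of the 1393 higher elements, 946 had a p0-1 mean under 100 normalized counts and passed the filter on low values through p2 alone, whereas the p2 mean was under 100 in 32 of the 78 lower elements. The median count of the higher elements was 77.7 in p0-1 and 249.8 in p2, and that of the lower elements 247 and 108. In p0-1 replicates 1, 2 and 3 the higher elements held 0.767%, 0.595% and 0.692% of normalized reads in elements. In p2 they held 2.62%, 2.43% and 1.40%, with replicate 3 the lowest of p2. The elements were chosen on these same samples, which fixes the direction of this difference.

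The sequences shown first are the centres of 3 of the largest increases and of the largest decrease, since they carry a wide separation of the 2 cell types, followed by the most changed called elements of Nkx6-1, Dbx1 and Foxn4, the genes on which the account of identity turns. The decrease and the elements of these genes were chosen after their values were seen. Each run is 300 bases of the forward strand of mm10, read from GRCm38.p6. Capitals mark the E-box forms CAGCTG and CAGATG (also read as CATCTG on the other strand) and the homeodomain core TAATTA.
Shank2 element, chr7:144096115-144096414: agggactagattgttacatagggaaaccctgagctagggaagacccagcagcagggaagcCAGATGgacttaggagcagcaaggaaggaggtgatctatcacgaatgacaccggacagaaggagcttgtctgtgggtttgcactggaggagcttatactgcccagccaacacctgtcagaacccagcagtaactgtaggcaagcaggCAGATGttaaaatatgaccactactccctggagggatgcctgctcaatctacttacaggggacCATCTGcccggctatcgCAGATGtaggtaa
B930025P03Rik element, chr8:10680576-10680875: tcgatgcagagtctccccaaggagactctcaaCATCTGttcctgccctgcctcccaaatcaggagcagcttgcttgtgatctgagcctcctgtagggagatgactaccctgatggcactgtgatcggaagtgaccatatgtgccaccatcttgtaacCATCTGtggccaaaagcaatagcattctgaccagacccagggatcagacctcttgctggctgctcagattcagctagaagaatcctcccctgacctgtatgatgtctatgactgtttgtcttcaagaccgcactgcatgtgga
Vxn element, chr1:9578705-9579004: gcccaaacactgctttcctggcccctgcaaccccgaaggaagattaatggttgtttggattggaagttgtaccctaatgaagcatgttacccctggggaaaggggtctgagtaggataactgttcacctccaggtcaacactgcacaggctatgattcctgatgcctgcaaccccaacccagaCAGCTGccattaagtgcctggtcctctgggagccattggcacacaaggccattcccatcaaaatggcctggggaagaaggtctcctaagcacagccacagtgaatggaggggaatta
Jak2 element, chr19:29216308-29216607: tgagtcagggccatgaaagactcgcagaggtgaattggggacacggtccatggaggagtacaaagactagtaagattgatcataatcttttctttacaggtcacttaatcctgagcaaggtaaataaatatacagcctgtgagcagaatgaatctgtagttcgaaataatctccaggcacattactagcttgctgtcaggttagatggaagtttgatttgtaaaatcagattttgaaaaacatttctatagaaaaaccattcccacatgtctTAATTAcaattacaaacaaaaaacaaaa
Nkx6-1 element, chr5:101432124-101432423: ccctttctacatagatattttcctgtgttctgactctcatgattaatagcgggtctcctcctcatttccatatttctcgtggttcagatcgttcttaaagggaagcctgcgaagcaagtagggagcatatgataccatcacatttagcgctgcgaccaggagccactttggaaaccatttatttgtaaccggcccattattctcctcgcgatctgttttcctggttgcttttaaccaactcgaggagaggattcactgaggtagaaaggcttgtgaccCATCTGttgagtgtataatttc
Dbx1 element, chr7:49639956-49640255: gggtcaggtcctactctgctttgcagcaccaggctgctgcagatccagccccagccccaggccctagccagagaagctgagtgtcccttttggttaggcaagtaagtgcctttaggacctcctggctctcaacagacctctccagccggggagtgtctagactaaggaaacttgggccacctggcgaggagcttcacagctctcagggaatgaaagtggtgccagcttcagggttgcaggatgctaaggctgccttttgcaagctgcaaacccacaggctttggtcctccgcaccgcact
Foxn4 element, chr5:114263981-114264280: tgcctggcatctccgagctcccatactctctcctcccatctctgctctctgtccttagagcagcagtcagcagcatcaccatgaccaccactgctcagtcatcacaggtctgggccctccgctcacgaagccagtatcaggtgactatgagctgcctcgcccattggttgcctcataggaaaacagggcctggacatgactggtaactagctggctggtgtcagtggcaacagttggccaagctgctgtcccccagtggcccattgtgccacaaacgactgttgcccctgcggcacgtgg
The 3 increases each held at least 1 of the 2 E-box forms, and the Shank2 element held 4 copies of CAGATG. The Jak2 element, which was lower in p2, held TAATTA and no copy of either E-box form. No copy of the 3 motifs lay in the windows of the Dbx1 and Foxn4 elements.

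Among the elements higher in p2 these E-box forms were the commonest of the 10 motifs searched on both strands of these central windows. Among elements outside promoters, 51.2% of the 1368 higher ones held CAGATG, against 22% of all 25347 tested and 16.7% of the 78 lower ones. CAGCTG was in 33.1%, 20.7% and 12.8%. Either form was in 67.4% of the higher, 37.9% of all and 28.2% of the lower elements, whereas CACGTG, an E-box form read by other bHLH factors, was in 5.04%, 4.55% and 1.28%. The SOX core ACAATG was in 22.5% of the higher, 19.5% of all and 28.2% of the lower, and TAATTA in 7.82%, 6.82% and 6.41%. The remaining motifs, POU (ATGCAAAT), FOX (TGTTTAC), GLI (GACCACC), TEAD (ACATTCC) and RFX (GTTGCCA), were in under 6% of the higher and of all elements outside promoters. A match is a description of letters, and no test was made of these shares. CAGATG and CAGCTG are both of the form CANNTG, and an element may hold both. The median GC content of elements outside promoters was 48.4% for the higher and 50% for all.

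**Figure D2:**
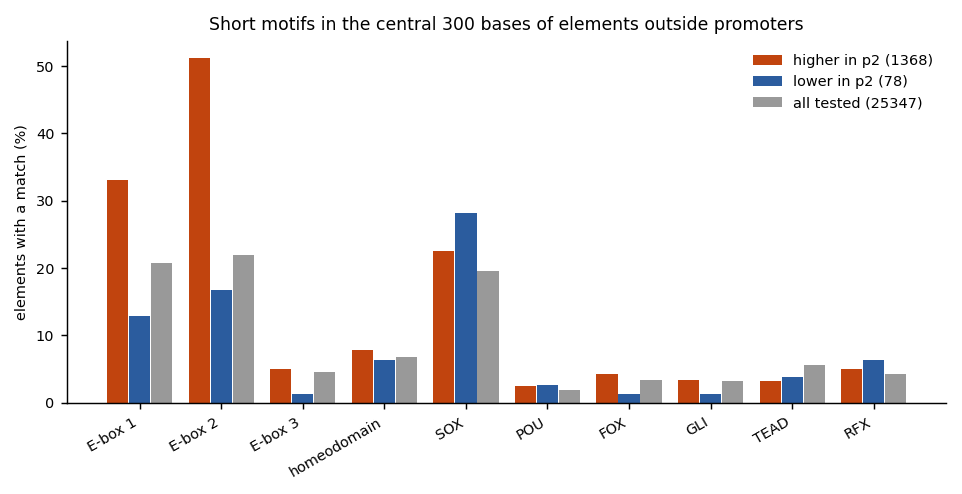
Share of elements outside promoters (percent) whose central 300 bases hold each of 10 short motifs on either strand; bars stand for elements higher in p2, lower in p2 and all tested. E-box 1 is CAGCTG, E-box 2 is CAGATG and E-box 3 is CACGTG. The gap between the higher elements (51.2%) and all tested elements (22%) is widest for E-box 2.

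The called elements lay away from promoters. Promoters made up 21.3% of the tested elements, 1.79% (25) of the higher and none of the 78 lower, and the 6866 promoter elements were called higher in 0.364% of cases. Introns held 47.7% of the higher and 35.9% of the lower elements, against 35.3% of all tested. Intergenic elements made up 46% of the higher, 64.1% of the lower and 30.6% of all. The median distance to the nearest TSS was 42656 bp for the higher, 65986 bp for the lower and 9991 bp for all tested elements, and without promoters it was 43703 bp for the higher and 21939 bp for all. The higher elements were also narrower, with a median width of 1158 bp against 1325 bp.

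The elements nearest the start sites of the sorting markers are described here. The sort itself used marker proteins, and few promoters were called, so these counts are no check of the gate. At the promoter of Nkx6-1 (132 bp from the TSS, chr5:101662711-101666976) the counts were 1559, 1529 and 1516 in p0-1 and 2066, 2016 and 1953 in p2. The groups did not overlap and the fold was 1.31 (adjusted p = 9.48e-04), below the fold threshold, so this promoter was open in both cell types. Pax6, whose protein both gates required, had 3369, 3438 and 3572 counts at its promoter in p0-1 and 3292, 3468 and 3711 in p2. Sox2, the marker of neural progenitors in both gates, had 1747, 1698 and 1495 in p0-1 and 1618, 1711 and 1549 in p2. These 2 promoters overlapped between the groups, with log2 fold changes of 0.01 ± 0.03 for Pax6 and -0.02 ± 0.05 for Sox2 (SE of 3 pairs; adjusted p = 0.79 and 0.803). The element nearest the TSS of Olig2, the marker of pMN cells, had 388, 437 and 425 counts in p0-1 and 681, 650.4 and 713 in p2. It was 1.63-fold higher in p2 (adjusted p = 0.00105), under the fold threshold. No element of the table was annotated to Nkx2-2 by that name.

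Around Nkx6-1, 7 of 16 tested elements were called higher in p2 and none lower, the most of any gene. The element 8.80 kb from the TSS (chr5:101655125-101656702) had 293, 289 and 291 counts in p0-1 and 793, 809.9 and 764 in p2. The p2 samples were all above the p0-1 samples and the spread within each group was small, including replicate 3, with a log2 fold change of 1.44 ± 0.03 (adjusted p = 3.16e-04). The largest change was 232 kb away (chr5:101431512-101433035), with 144, 120.0 and 109 counts in p0-1 and 668, 798 and 355 in p2. Here p2 replicate 3 was the lowest p2 sample but above every p0-1 sample, and the log2 fold change was 2.21 ± 0.30 (adjusted p = 9.48e-04). The other 5 called elements had log2 fold changes between 1.38 and 1.99 and lay 16.3 to 238 kb from the TSS. At 120.4 kb the counts were 147, 169 and 147 in p0-1 and 412, 397 and 406 in p2. The element at 16.3 kb, with 39.4, 50.9 and 46.6 counts in p0-1 and 209.7, 245 and 119 in p2, had an adjusted p of 0.0116 once pair 2 was left out. By limma without pair 1, the element at 8.80 kb kept its call (adjusted p = 0.00939). The other called elements of Nkx6-1 lost theirs, with adjusted p from 0.0103 to 0.0293. The same held without the replicate block, with 0.00244 at 8.80 kb and 0.0131 to 0.0178 at the others.

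Of the 60 tested elements of 11 genes of p2 and V2 identity, 12 (20%) were called higher and none lower, and their median log2 fold change was 0.06, against 4.32% and -0.06 over all tested. Besides the 7 of Nkx6-1, they belonged to Foxn4, Irx3, Lhx3 and Vsx1. The Foxn4 intron 2, Lhx3 and Vsx1 elements had p0-1 means of 91.6, 52.6 and 60.8, under the filter of 100. So did the Nkx6-1 elements at 16.3, 99.7 and 167 kb (45.6, 69.3 and 93.5). All of these passed the filter through p2, which favours calls higher in p2. Foxn4, a forkhead factor of V2 precursors, had 2 called elements. In the intron 2 element (chr5:114263777-114264483) the counts were 114, 73.2 and 87.3 in p0-1 and 667, 711 and 297 in p2, and the log2 fold change was 2.52 ± 0.43 (adjusted p = 0.00101). Its second element, 5.85 kb from the TSS, had 192, 139 and 234 counts in p0-1 and 489, 501 and 313 in p2 (2.3-fold higher, adjusted p = 0.00753). Both Foxn4 elements had their lowest p2 count in replicate 3. Lhx3, a LIM homeodomain factor of V2a interneurons and motor neurons, had 70.8, 29.5 and 57.6 counts in p0-1 and 333, 211 and 150.1 in p2 at an element 32.8 kb away (chr2:26175047-26175846; log2 fold change 2.13 ± 0.42, adjusted p = 0.00141). Vsx1, a homeodomain factor expressed in V2 precursors, had 57.6, 67.1 and 57.6 counts in p0-1 and 217, 157 and 122 in p2 at its first exon (chr2:150687892-150689614; log2 fold change 1.39 ± 0.26, adjusted p = 0.00266). Neither the Lhx3 nor the Vsx1 groups overlapped, as in 98.4% of all higher elements and 29.3% of all tested.

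Irx3, an Iroquois homeodomain factor present from p2 dorsally, had 20 tested elements, of which 1 was called higher. That element lay 195 kb from the TSS (chr8:91996418-91997881), with 346, 167 and 184 counts in p0-1 and 1233, 1243 and 414 in p2 (log2 fold change 1.96 ± 0.50, adjusted p = 0.00211). The lowest p2 sample, replicate 3, was close to the highest p0-1 sample. The median log2 fold change over the 20 elements of Irx3 was -0.20. Of the 43 elements of the 6 Iroquois genes, this 1 was called (2.33%, under the 4.32% called higher of all tested).

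Dbx1 was among the 3 genes with the most lower elements, 3 each, with Htatip2 and 2310008N11Rik. Of 42 tested elements of 9 genes of p0 and p1 identity, 3 (7.14%) were called lower, all of them annotated to Dbx1, against 0.242% of all tested, and the median was -0.11. Dbx1 had 4 tested elements in all. The element in intron 2 of Dbx1 (chr7:49633350-49637413) had 2234, 2143 and 1814 counts in p0-1 and 897, 1074 and 911 in p2. Every p0-1 sample was above every p2 sample, and replicate 3 did not differ from the other p2 samples (log2 fold change -1.10 ± 0.11, adjusted p = 6.44e-04). The element 3.27 kb from the TSS (chr7:49639038-49641173) had 377, 367 and 265 counts in p0-1 and 105, 175 and 86.3 in p2 (log2 fold change -1.50 ± 0.23, adjusted p = 0.00107). The element 59.8 kb away (chr7:49696204-49697027) had 2061, 2110 and 2051 counts in p0-1 and 643, 874 and 1165 in p2, with a log2 fold change of -1.26 ± 0.25 (adjusted p = 0.00114). In p0-1 it varied little, whereas the p2 samples were spread out, with replicate 3 the highest.

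The region continued into elements annotated to Htatip2, a neighbouring gene, of which 4 were tested, 3 called lower and 1 higher. The largest of these decreases (chr7:49704521-49705890) had 1008, 1029 and 933 counts in p0-1 and 361, 362 and 306 in p2 (log2 fold change -1.53 ± 0.04, adjusted p = 1.70e-04). It had one of the smallest spreads between pairs of all named elements. The others that were lower had 1224, 1267 and 1242 against 383, 556 and 464 counts, and 234, 244 and 205 against 78.6, 92.7 and 89.3. Another element between them (chr7:49709443-49710216) went the other way, with 90, 61 and 37.3 counts in p0-1 and 424, 429 and 142 in p2 (log2 fold change 2.31 ± 0.26, adjusted p = 9.48e-04). Nkx6-2, a homeodomain factor of the p1 domain, had 1 of 7 tested elements called, and it was higher in p2, with 77.9, 61 and 108 counts in p0-1 and 177, 201 and 214 in p2 (log2 fold change 1.29 ± 0.21, adjusted p = 0.00193).

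**Figure D3:**
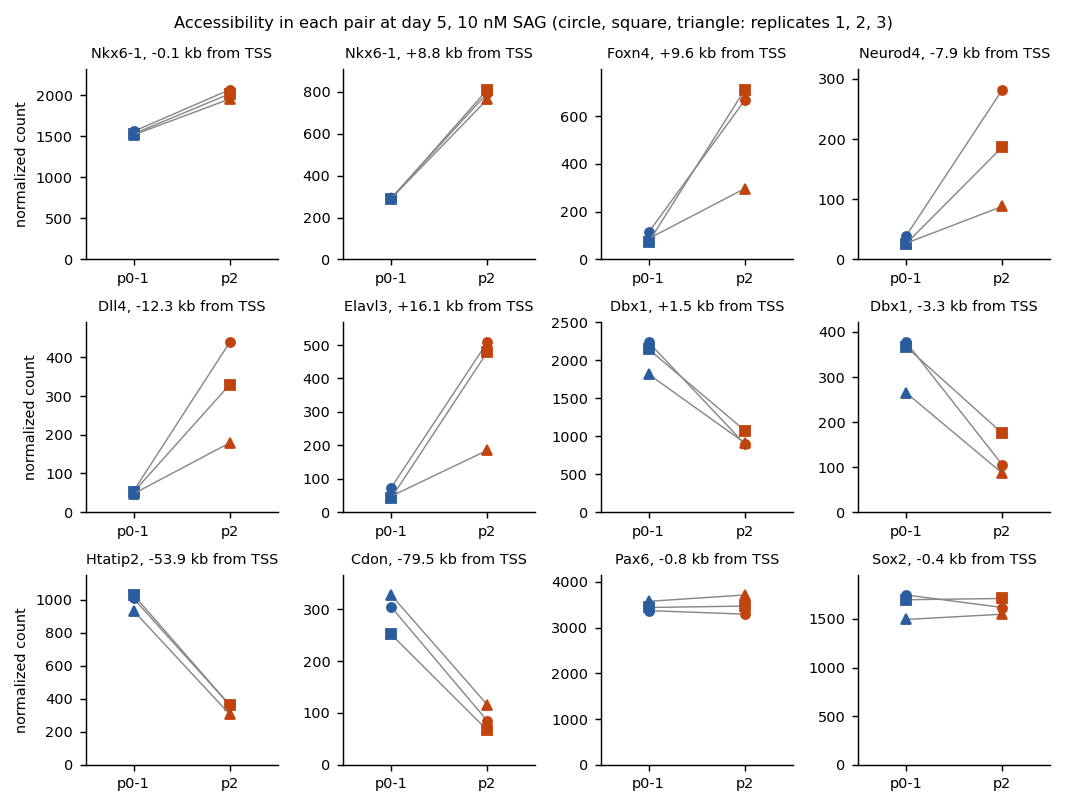
Normalized counts of 12 elements in the 3 pairs at day 5, 10 nM SAG; lines join p0-1 (blue) and p2 (red) of 1 replicate number, and each axis starts at 0. Elements of Nkx6-1, Foxn4, Neurod4, Dll4 and Elavl3 rise in each pair, those of Dbx1, Htatip2 and Cdon fall in each pair, and the promoters of Pax6 and Sox2 overlap; at Foxn4, Neurod4, Dll4 and Elavl3 the p2 sample of replicate 3 (triangle) is the lowest p2 sample.

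Elements of Notch and proneural genes were called higher in p2 in 11 of 90 cases (12.2%, against 4.32% of all tested) and lower in 1 (1.11%, against 0.242%), with a median log2 fold change of 0.07, against -0.06. The ligands came first. Dll4 had 2 of 3 tested elements called, and the one 12.3 kb from its TSS (chr2:119311683-119315326) had 54.6, 51.9 and 47.5 counts in p0-1 and 439, 329.7 and 179 in p2 (log2 fold change 2.51 ± 0.32, adjusted p = 9.48e-04). Dll1 had 3 of 5 called, between 1.03 and 1.43 on the log2 scale. The Dll1 element with the smallest p (chr17:15378477-15379120) had 412, 389 and 373 counts in p0-1 and 816, 939 and 659 in p2. The receptor Notch1 had 1 of 3 called, with 935, 725 and 903 counts in p0-1 and 2018, 1892 and 1423 in p2 in its intron 2. Hes1, a transcriptional target of Notch, had the 1 element called lower, with 115, 157 and 142 counts in p0-1 and 60.5, 59.3 and 84.4 in p2 (log2 fold change -1.02 ± 0.19, adjusted p = 0.00594). None of these groups overlapped, as in 98.4% of all higher and 98.7% of all lower elements, against 29.3% of all tested. Nothing is read from that, since the call used the same samples.

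Among the proneural bHLH factors, Neurod4 had 3 of 5 tested elements called. The Neurod4 element 7.95 kb away (chr10:130287662-130288743) had 39.4, 26.4 and 27.1 counts in p0-1 and 282, 187 and 88.3 in p2 (log2 fold change 2.42 ± 0.37, adjusted p = 0.00132). At 1.89 kb the Neurod4 counts were 518, 406 and 459 in p0-1 and 1544, 1573 and 839.8 in p2. In both elements p2 replicate 3 was the lowest p2 sample and still above p0-1. The Neurod4 element at 7.95 kb and the Dll4 element at 12.3 kb had p0-1 means of 31 and 51.3. Both passed the filter on the mean through p2, which favours calls higher in p2.

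Elements of neuronal genes were also called, although both gates required SOX2. Of 26 tested elements of 8 neuronal genes, 4 (15.4%, against 4.32% of all tested) were called higher and none lower, and the median log2 fold change was 0.16, against -0.06. Summed over the 26 elements the counts were 10090, 9242 and 9099 in p0-1 and 12857, 12483 and 10284 in p2. Elavl3, which encodes a neuronal RNA-binding protein, had 72.8, 41.7 and 47.5 counts in p0-1 and 508, 479 and 185 in p2 in its intron 3 (log2 fold change 2.74 ± 0.45, adjusted p = 0.00101). Elavl4, its close relative, had 27.3, 25.4 and 21.2 counts in p0-1 and 242, 201 and 105 in p2 in intron 1 (log2 fold change 2.76 ± 0.26, adjusted p = 9.48e-04). Tubb3, the neuronal tubulin, had 921, 923 and 679 counts in p0-1 and 2416, 2378 and 1018 in p2, and Map2 119, 58 and 76.3 against 244, 289 and 151. NMP samples had 1722 ± 273 counts at the Tubb3 element (SD, n = 3). By limma its adjusted p was 0.0729 without the replicate block and 0.0111 without pair 2. The elements of Elavl3, Elavl4, Tubb3 and Map2 are the called ones, and 15 of the 26 had a positive change. Those of Elavl3, Elavl4 and Map2 had p0-1 means of 54, 24.6 and 84.5. They passed the filter on the mean through p2, which favours calls higher in p2. The median log2 fold change was -0.06 over the 3 elements of Map2. It was -0.34 over 5 elements of Snap25 and -0.03 over 3 of Syt1, neither with a call. Nhlh1, a bHLH gene of newborn neurons that stood on no list, had 154, 113 and 115 counts in p0-1 and 743, 646 and 338 in p2 at its element with the smallest p. Among motor neuron genes 4 of 22 tested elements (18.2%, against 4.32% of all tested) were called higher, 2 of Lhx4 and 1 each of Isl1 and Lhx3, the last being the element already counted for p2 and V2 identity. The median of this list was 0.07, with 13 of the 22 positive. The Isl1 and Lhx3 elements and the Lhx4 element with the smallest p had p0-1 means of 58, 52.6 and 36.9. They too passed the filter through p2. The 3 tested elements of Mnx1 had log2 fold changes of -0.55 to -0.26, and none was called. The share of newly born neurons among the sorted cells was not measured, and its part in these differences was not tested.

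The lists of pMN, p3 and floor plate, NMP and mesoderm, pluripotency, neural crest and pan-neural genes had 0 or 1 call each. With so few elements such counts cannot be told from the 4.32% of all tested. Of 38 tested elements of pMN, p3 and floor plate genes 1 was called higher, 28.1 kb from Olig1, with 119, 116 and 109 counts in p0-1 and 479, 301 and 349 in p2 (log2 fold change 1.68 ± 0.18, adjusted p = 9.48e-04). None of 14 elements of NMP and mesoderm genes, 10 of pluripotency genes and 17 of neural crest genes was called, with medians of -0.29, -0.06 and -0.03. The 69 elements of pan-neural Sox, Pou3f and NFI genes had 1 call, in Nfia (2.95-fold higher).

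**Figure D4:**
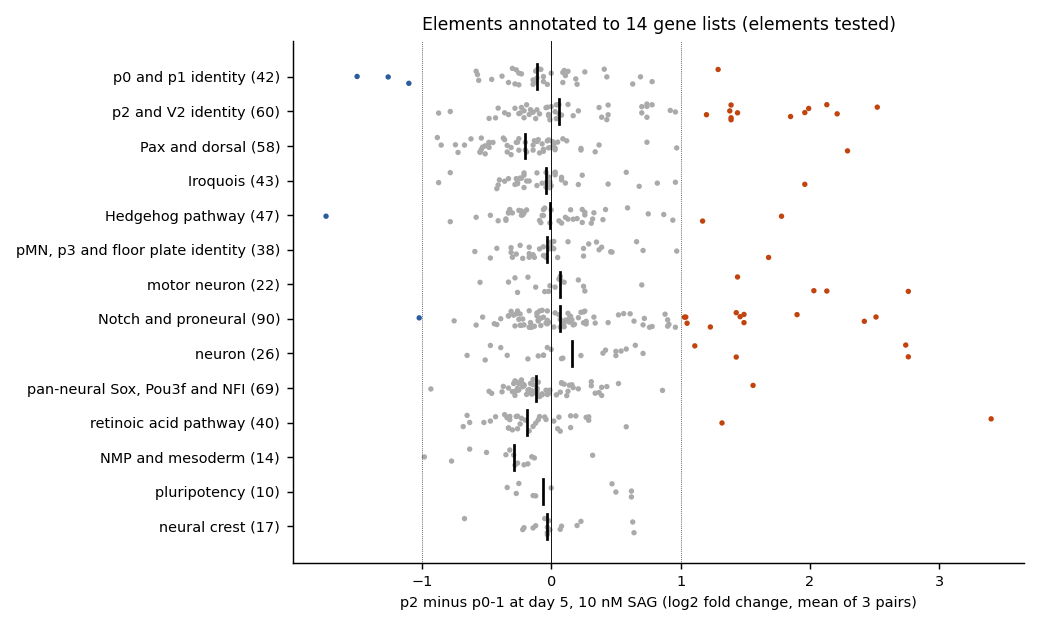
Log2 fold change of p2 over p0-1 (mean of 3 pairs) for the tested elements annotated to each of 14 gene lists; points are elements, red called higher, blue called lower and grey not called, and the bar is the median. The p2 and V2 list has 12 red points among 60, and the 3 blue points of the p0 and p1 list are those of Dbx1.

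Elements of the Hedgehog pathway were called in 3 of 47 cases, 2 higher and 1 lower, with a median of -0.01; the 4.26% called higher was close to the 4.32% of all tested elements. Cdon, a co-receptor for Shh, held 1 of each. The lower element, 79.5 kb away (chr9:35371997-35373105), had 305, 252 and 328 counts in p0-1 and 85, 66.9 and 116 in p2 (log2 fold change -1.74 ± 0.13, adjusted p = 9.26e-04). Hhip, which binds and restrains hedgehog ligands, had 119, 83.4 and 78.8 counts in p0-1 and 243, 242 and 156 in p2 at an element 119 kb from its TSS. Among Pax and dorsal genes 1 of 58 elements (1.72%, under the 4.32% of all tested) was called higher, near the dorsal homeobox gene Msx1. That element was 4.90-fold higher in p2, and the median of the list was -0.20. Of 40 elements of retinoic acid genes 2 (5%) were called higher, also close to the share of all tested, and one of them, 58.5 kb from Cyp26b1, which encodes an enzyme that degrades retinoic acid, had 28.3, 16.3 and 15.3 counts in p0-1 and 327, 258 and 112 in p2 (log2 fold change 3.40 ± 0.32, adjusted p = 9.48e-04).

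Most of the 12 largest increases were almost closed in p0-1. The one near Vxn (chr1:9578390-9579318), at the end of Adhfe1, had 58.6, 37.6 and 42.4 counts in p0-1 and 763, 705 and 239 in p2. In all 12, p2 replicate 3 had the lowest count of the p2 samples. Their groups did not overlap, as in 98.4% of the higher elements and 29.3% of all tested. The 12 were chosen on these samples, so nothing is read from that. Others of the 12 were nearest to Shank2, B930025P03Rik, Ces5a, Cyp26b1, Zdhhc17, 4933409F18Rik, Spata18, Mir499, Phldb2 and Slc24a2. The genes with most higher elements after Nkx6-1 were Tle3, a Groucho co-repressor, St8sia2, Sdk2, Setbp1 and Gm16551, with 4 each, and 42 genes had 3.

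The 8 largest decreases lay outside genes and were smaller. The largest was 35.3 kb from Jak2 (chr19:29215889-29217025), with 253, 329 and 153 counts in p0-1 and 33.4, 72.9 and 43.2 in p2 (log2 fold change -2.28 ± 0.32, adjusted p = 0.00101). Those nearest to Mir5118, 4930519L02Rik, 4930486I03Rik, Tmem196 and 2310008N11Rik had log2 fold changes between -1.76 and -1.68, and Cdon and Htatip2 completed the 8. Of these 8, 4930519L02Rik had the widest spread between pairs, with 297, 342 and 118 counts in p0-1 and 57.8, 68.4 and 76.5 in p2.

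The same comparison at the other days used other samples of the same design, with 3 pairs each. At day 6, 10 nM, 2221 of 32167 elements (6.90%) were called higher in p2 and 231 (0.718%) lower. Of the 1393 elements higher at day 5, 1348 were tested at day 6, all 1348 had a positive change, against 26.3% of all elements tested on both days, and 1130 were called higher. Those 1130 were 81.1% of the day 5 elements and 50.9% of the 2221 at day 6. Of the 78 lower elements, 43 were tested at day 6, all 43 were lower and 26 were called. A lower value was the more common direction there, since 26.3% of all elements tested on both days had a positive change. At Dbx1 the intron 2 element had 2466 ± 304 counts in p0-1 and 982 ± 42 in p2 at day 6 (SD, n = 3), and the element 59.8 kb away 2316 ± 177 and 557 ± 154 (adjusted p = 1.24e-07).

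At day 4, 10 nM, 886 of 29490 elements (3.00%) were higher and 7 (0.0237%) lower, a count of 893 that fell to 0 by limma without the replicate block (2295 at an unadjusted p under 0.05), with median centering (7431), without the filter on the mean (26169) and with voom (6172). The overlaps at day 4 rest on these calls. Of the 1393 higher elements 473 were tested at day 4, 418 of them were higher there and 125 were called, and of the 78 lower elements 29 were tested and 1 was called. Of all elements tested on both days, 32.2% were higher in p2 at day 4. The Nkx6-1 element at 8.80 kb had 387 ± 74.3 counts in p0-1 and 728 ± 146 in p2 at day 4 (adjusted p = 0.00324), and the Dbx1 intron element 1200 ± 279 and 964 ± 29.7 (SD, n = 3; adjusted p = 0.276). The test of whether the difference between the cell types changed from day 5 to day 6 called no element of 32211 by limma, with 6069 at an unadjusted p under 0.05, and it called 190 without replicate 3.

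When the cell types came from different doses, p0-1 from 0 nM and p2 from 100 nM SAG at day 5, 1206 of 31319 elements (3.85%) were higher in p2 and 975 (3.11%) lower. Dose and cell type changed together in this comparison and cannot be told apart. Of the 1393 elements higher at 10 nM, 797 were tested there, 788 were higher and 460 called, which is 33% of the 1393 and 38.1% of the 1206. Of the 78 lower elements 75 were tested, 73 were lower and 48 called, or 61.5% of the 78 and 4.92% of the 975. Of all elements tested in both comparisons, 36.3% were higher in p2 here, so a lower value was the more common direction. The lower Cdon element had 941 ± 326 counts in p0-1 at 0 nM and 86.7 ± 28.4 in p2 at 100 nM (SD, n = 3; log2 fold change -3.41, adjusted p = 3.22e-08). At 10 nM the same element had 295 ± 38.9 counts in p0-1 and 89.2 ± 24.7 in p2. The Nkx6-1 element at 8.80 kb went from 93.6 ± 21.2 to 756 ± 55.4 (SD, n = 3).

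The 1393 higher elements were followed through all groups by the median count per sample. In NMP samples at day 3 it was 20.2 to 24.2. At day 5 it was 67.1 to 87.0 in p0-1 and 155, 284 and 315 in p2 at 10 nM, and 108, 157 and 179 in p2 at 100 nM, so p2 from the higher dose overlapped with replicate 3 at 10 nM. pMN samples at day 5 had 175 to 237 and p3 samples 59.8 to 79.8, in the range of p0-1 at 0 and 10 nM. At day 6, p0-1 at 10 nM had 99.0 to 144 and p2 at 10 nM 320.2 to 367. The p2 sample of replicate 3 was the lowest of its group at days 4, 5 and 6 at both doses.

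The 78 lower elements had a different course. Their median was 13.3 to 15.6 in NMP samples and 39.2 to 74.0 in p0-1 at day 4, 10 nM, where p2 had 46.6 to 82.1 and the groups overlapped. At day 5, 10 nM, it was 217 to 271 in p0-1 and 94.4 to 128 in p2, and at 0 nM p0-1 had 302 to 336. pMN samples at day 5 had 74.4 to 106 and p3 samples 57.9 to 66.0. At day 6 p0-1 from 10 nM fell to 135 to 173, whereas the 2 samples from 0 nM had 237 and 302. These levels describe elements chosen at day 5, 10 nM, and no test was made over them.

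**Figure D5:**
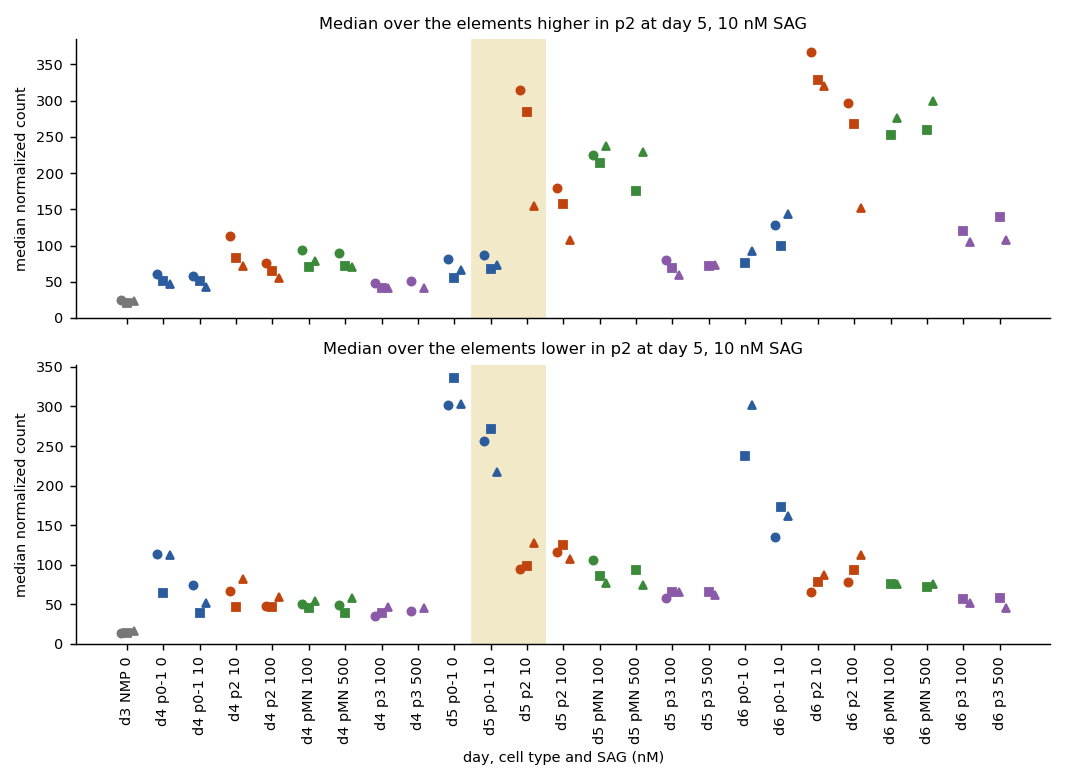
Median normalized count of the 1393 elements higher (top) and the 78 elements lower (bottom) in p2 at day 5, 10 nM SAG, in each of the 67 samples by day, cell type and SAG in nM; each point is 1 sample, symbols are replicates 1 (circle), 2 (square) and 3 (triangle), and the shaded groups are those in which the elements were chosen. The higher elements are also raised in pMN samples at days 5 and 6 and in p2 at day 6, and the lower elements are highest in p0-1 at day 5.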

How the data were processed

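The authors aligned the ATAC-seq reads to mm10 with nf-core/atacseq, called peaks with MACS, kept consensus peaks found in replicates, counted reads in them and deposited variance-stabilised values from DESeq2 on a log2 scale, with a table of peak annotation by HOMER. The transformation was inverted here to normalized counts and then to reads (largest distance from a whole read 3.62e-11). limma 3.58.1 (R 4.3.3) with an intensity trend and the replicate number as a block was fitted to the deposited log2 values of the 6 samples, for elements with a mean above 100 normalized counts, and p-values were adjusted by Benjamini-Hochberg over all of them. Fold changes are means of the 3 paired differences of log2(normalized count + 1), and so understate the change of low elements. The block rests on taking same-numbered samples to come from 1 dish, which the labels do not state. Same-numbered samples deviated together over the elements (r = 0.605, 0.558 and 0.591 for the 3 numbers).

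The members, gene lists, motifs and tests were chosen with earlier results of these data known. Named were the 12 largest increases and 8 largest decreases with all pairs alike, for 5 gene lists the element with the smallest p where called, the elements at the sorting markers' start sites and the genes with most calls. Some elements under this rule are not reported here. The elements of Irx3, Hhip and Hes1, further elements of Nkx6-1, Dbx1, Htatip2, Foxn4, Neurod4 and Dll1, and those of neuronal genes, Nfia and Olig1 outside that rule were added after their values were seen. Sequences came from GRCm38.p6, in which all 111638 elements lay within their chromosomes. The fits were tested on simulated data. Samples held 13485605 to 23624554 reads in elements.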

Additional observations from a re-analysis of the deposited data

Results flagged for a closer look

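The Vsx1 exon 1 element moved in opposite directions at day 4 and day 5 at 10 nM in every pair. At day 4 it had 141 ± 59.2 counts in p0-1 and 102 ± 15.4 in p2 (SD, n = 3), a log2 fold change of -0.40 (limma, adjusted p = 0.263), against 1.39 at day 5. The difference between the days was not tested. NMP samples had 423 ± 52.2 counts there.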

How the results depend on the processing

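Day 5, 10 nM (1471 calls, 1393 higher in p2 and 78 lower): the count moved with the replicate block, the pairs and several settings. Without the block 4 elements were called (2 higher, 2 lower; 7713 at an unadjusted p under 0.05). Without 1 pair the counts ran from 4 to 2376, with 2 to 2148 higher and 2 to 228 lower; at an adjusted p under 0.05 the fit without pair 1, chosen after seeing the data, called 963 (913 higher, 50 lower). Without the block and without 1 sample, limma called 0 for 5 of the 6 samples, with 4608 to 7804 at an unadjusted p under 0.05, and without p2 replicate 3 it called 1802 (1674 higher, 128 lower). With no trend of the variance the count was 0 (12759 at an unadjusted p under 0.05) and, at an adjusted p under 0.05 added after seeing the data, 1482. No filter on the mean gave 8242 (7827 higher, 415 lower), a mean above 300 gave 211 (198 and 13), a log2 fold change beyond 2 gave 402 (401 and 1) and no fold threshold 4157 (2451 and 1706), which moved the share higher from 94.7% to 59%. voom called 48 lower. Median centering, GC correction, voom, log2 counts, array weights, an adjusted p under 0.05 and all day 5 samples kept the total within 1.5 times, as did the 2 other fold measures.

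Day 6 (2452 calls) gave 11359 without the filter. Day 4 (893 calls) gave 0 without the block, with median centering, without the filter and with voom (2295, 7431, 26169 and 6172 at an unadjusted p under 0.05), and 577 to 1232 without 1 pair. The comparison of 100 with 0 nM (2181 calls) gave 1286 without the block and 12537 without the filter. The change from day 5 to day 6 (0 calls) gave 190 without replicate 3 and 1 without the filter.

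Of the 65 named elements tested, 59 lost their call without the block and kept their direction. So did 49 of the 56 still tested without replicate 1 and 13 of the 60 still tested without replicate 2. These totals include the promoters of Nkx6-1, Pax6 and Sox2 and the Olig2 element, which were not called and had no call to lose. Without the block, only the Htatip2 element at chr7:49704521-49705890 and the Nkx6-1 element 8.80 kb from its TSS kept their calls. Leaving out 1 pair moved the Pax6 promoter between -0.01 and 0.03 and the Sox2 promoter between -0.05 and 0.03 on the log2 scale, a change of sign in each; neither was called in any of these fits. The cause of these losses was not tested.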

Other observations

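Of the 1471 called elements, 436 were tested in all 3 other comparisons of p2 with p0-1, and 2 of them differed by less than 1.5-fold in each, near Tmem196 and Tbc1d22a. The Tmem196 element (chr12:120028232-120028961) had 328, 363 and 489.8 normalized counts in p0-1 and 90.4, 91.2 and 185 in p2 at day 5, 10 nM. In the other 64 samples of the series, p0-1 at 10 nM included, it ranged from 251 to 723 with a median of 400.3, so that the p2 samples of day 5, 10 nM were the 3 lowest of all 67. The log2 fold changes of p2 over p0-1 at this element were -0.22 at day 4, -0.40 at day 6 and -0.06 between 100 nM and 0 nM at day 5. The Tbc1d22a element (chr15:86419253-86420067) had 157, 153 and 223 counts in p0-1 and 314, 448 and 327 in p2, and between 6.46 and 427 in the other 64 samples. Both were singled out after their values were seen.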
